A study of Mus musculus with 6 samples.

Results

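The genes described here are 10 transcription factors of embryonic mesenchyme: Osr1, Osr2, Twist1, Twist2, Prrx1, Prrx2, Tbx2, Tbx3, Tbx15 and Tbx18. They were chosen with earlier results of these data known. Probe sets were taken by gene symbol, and 22 probe sets of the array carried 1 of these symbols alone, out of 45101 in all. The 10 genes are part of 18193 genes with such probe sets. They were measured in C3H10T1/2, a mouse mesenchymal cell line that can turn into fat, cartilage, bone or muscle cells in culture. The 3 treated samples had received 50 ng/ml BMP4, a secreted bone morphogenetic protein, while the cells proliferated. The 3 control samples were grown in parallel without BMP4, and total RNA of both groups was taken past confluence. The sample titles name the line, the treatment and the replicate number only. The labels do not say whether replicates came from separate cultures. The p-values thus cover only the scatter among 6 arrays, part or all of which may be technical. The comparison asks which of these regulators change with BMP4 in cells studied for commitment to the adipocyte lineage.

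These factors mark connective tissue progenitors of the limb, face, body wall and internal organs. Osr1 and Osr2 are zinc finger proteins related to odd-skipped of the fly, and act in kidney, limb, joint and palate development. Twist1 and Twist2 are basic helix-loop-helix proteins that bind DNA at E-boxes as dimers, often with E proteins, and hold mesenchymal cells back from differentiation. Prrx1 and Prrx2 are paired-related homeobox proteins of limb bud and craniofacial mesenchyme. The T-box proteins Tbx2 and Tbx3 act mainly as repressors, Tbx15 works in the skeleton and is known from fat depots, and Tbx18 works in epicardium, somites and ureter.

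The 6 arrays had the same trimmed mean signal of 150, and signals are scanner intensities in arbitrary units. Other summaries differed between the groups: the median signal was 42.6, 38.9 and 37.6 on BMP4 arrays, against 37.3, 35.2 and 35.9 on control arrays. The highest signal of the bacterial control probe sets described next was likewise 23.5, 29.1 and 24.1 with BMP4, against 17.1, 16.6 and 21 in controls. Background was judged from 27 control probe sets for Bacillus subtilis transcripts, whose highest signal on any array was 29.1. Of all probe sets 56% to 59% lay above 29.1 on BMP4 arrays and 54.4% to 55.7% on control arrays. With each array centred on its median, the same 4 member genes as below were called lower and 0 were called higher. Such centring shifts every change by -0.095, which favours lower calls, so this result is no check on the falls. Calls under other normalizations are given below and differ in part. Of 8 mesenchymal and fibroblast markers, 8 were above that signal on every array. Each of the lists for other cell types had 6 markers. Of the leukocyte markers Cd68, Adgre1 and Csf1r were above it on every array, while Ptprc, Itgam and Cd3e were above it on none. Of the epithelial markers Epcam, Krt5 and Krt8 were above it on every array and Cdh1 and Krt18 on none. Of the skeletal muscle markers Ckm and Des were above it on every array and Myog, Myf5 and Myh3 on none, and of the endothelial markers Tek was above it on every array and Pecam1 and Vwf on none. Summed marker signals of each of the 5 marker lists overlapped between BMP4 and control arrays.

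With BMP4, 4 of the 9 factors that could be tested were lower and 0 were higher. Osr2 fell to 0.321 times its control signal, Osr1 to 0.699 times, Twist1 to 0.71 times and Tbx18 to 0.74 times. Twist2, Prrx2, Tbx3 and Tbx15 did not pass the test, Prrx1 passed on 1 of 5 probe sets, and Tbx2 was below background on every array. The test was limma on log2(signal + 16) over 27022 probe sets, with Benjamini-Hochberg adjustment and a threshold of 0.05. At an unadjusted p under 0.05, limma also gave 0 higher members. If BMP4 replicate 1, or control replicate 1 or 2, was left out there were 2 lower genes, Osr1 and Osr2. The same 2 were called without the filter on low signals, without the intensity trend or with a replicate block. Quantile normalization called Osr1, Osr2 and Prrx1 lower, and cyclic loess called Osr1, Osr2, Prrx1 and Tbx18. Leaving out BMP4 replicate 2 gave Osr1, Osr2, Twist1 and Twist2, and leaving out BMP4 or control replicate 3 gave Osr1, Osr2 and Tbx18. Over all 12966 genes tested with 1 probe set each, 5.66% were called lower and 5.03% higher. As the members were chosen with earlier results of these data known, such shares describe them and do not test an excess. Of the 17 member probe sets 5 were called lower and 0 higher, while over all probe sets 4.91% were lower and 4.2% higher. The median log2 change was -0.29 for the 9 genes and 0.03 for all genes tested. BMP4 arrays lay wholly below control arrays at 8 of the 17 probe sets and wholly above at 0, while over all probe sets these shares were 13.2% and 15%. The 8 include several probe sets of Prrx1 and of Tbx18, and probe sets of 1 gene are not independent. In RNA from whole cultures, fewer cells with a transcript and less of it per cell cannot be told apart.

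**Figure D1:**
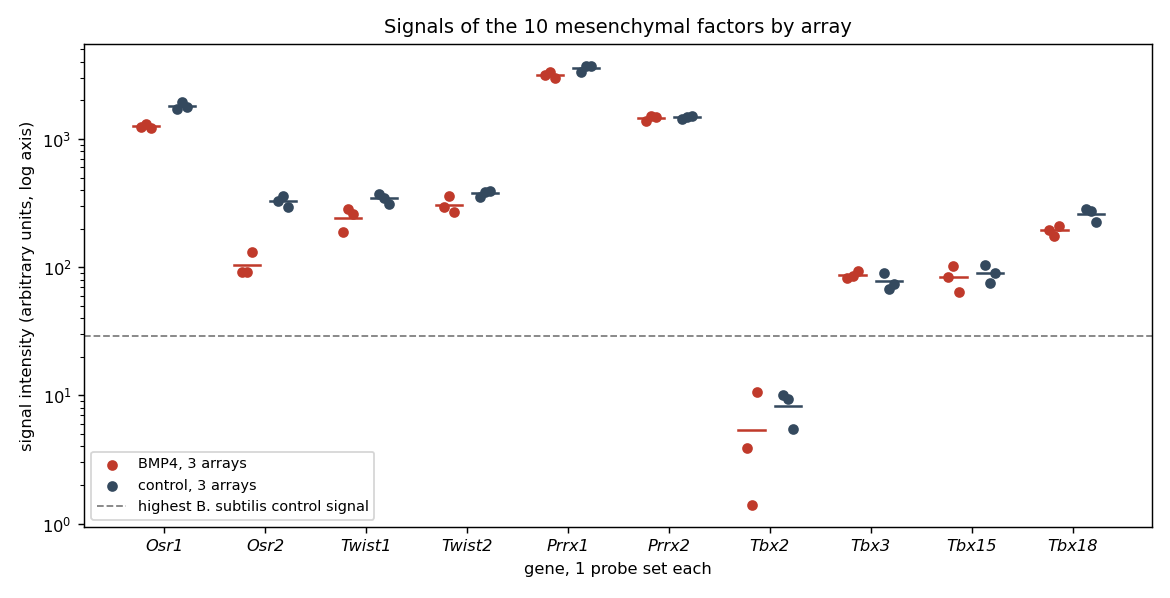
Signal intensity (log axis) of the 10 factors on each array, with the brightest tested probe set per gene, or the only one for Tbx2; points are single arrays, short lines are group means and the dashed line is the highest Bacillus subtilis control signal of 29.1. The BMP4 points of Osr1, Osr2, Twist1 and Tbx18 lie below all their control points, and Tbx2 lies under the dashed line.

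The log2 changes with their intervals spread from Osr2 at the low end to Tbx3 at the high end. All 17 tested probe sets were above 29.1 on all 6 arrays, so none was kept through 1 group alone. The other 5 probe sets lay at or under 22 on every array and were not tested. Of the 17, 16 had a negative change, against 44.9% of all probe sets tested. Probe sets of 1 gene are not independent. By gene, 8 of 9 had a negative change, against 44.9% of all genes tested.

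**Figure D2:**
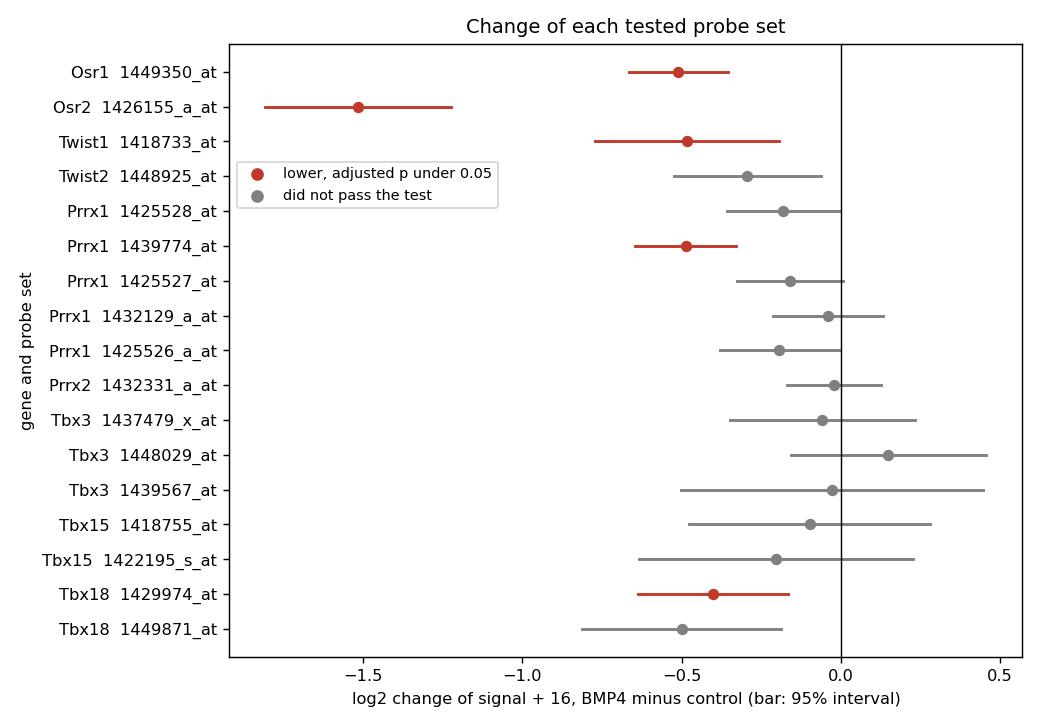
Log2 change of signal + 16, BMP4 minus control, for the 17 tested probe sets (points) with 95% intervals from limma (bars). The 5 probe sets in red passed the test, and Osr2 at -1.52 lies apart from the rest, which run between -0.51 and 0.15.

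Upstream sequence is printed for Twist1 and Tbx18, as factors that fell, and for Twist2, as the relative of Twist1 that did not pass the test. The RefSeq promoter table for GRCm38.p6 held entries for 5 of the 10 genes, the others being Prrx1 and Prrx2. The 250 bases before the listed start lie at chr12:33957421-33957670 on the plus strand for Twist1, at chr9:87731261-87731510 on the minus strand for Tbx18 and at chr1:91801211-91801460 on the plus strand for Twist2. Capitals mark matches on either strand to TATAA, to the E-box CANNTG bound by helix-loop-helix proteins, to GGCGCC, a sequence bound by Smads of the BMP pathway, to the homeobox core TAATTA and to GGTGTG, part of the T-box site.
Twist1: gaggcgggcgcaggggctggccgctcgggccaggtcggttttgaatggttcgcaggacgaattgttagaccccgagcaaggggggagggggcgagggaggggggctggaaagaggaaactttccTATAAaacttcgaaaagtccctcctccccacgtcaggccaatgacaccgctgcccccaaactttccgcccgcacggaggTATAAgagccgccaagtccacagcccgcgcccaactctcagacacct
Tbx18: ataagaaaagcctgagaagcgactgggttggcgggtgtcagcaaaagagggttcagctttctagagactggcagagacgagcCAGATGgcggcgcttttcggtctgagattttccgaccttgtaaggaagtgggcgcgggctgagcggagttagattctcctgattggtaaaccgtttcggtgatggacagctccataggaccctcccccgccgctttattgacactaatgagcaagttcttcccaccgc
Twist2: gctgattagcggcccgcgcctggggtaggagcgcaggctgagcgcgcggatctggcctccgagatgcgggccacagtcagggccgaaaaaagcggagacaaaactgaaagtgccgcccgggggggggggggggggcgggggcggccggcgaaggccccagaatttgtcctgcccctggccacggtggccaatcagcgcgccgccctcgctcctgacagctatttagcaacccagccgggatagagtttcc
Twist1 held TATAA in 2 places, beginning 126 and 47 bases before the start, and Tbx18 held 1 E-box, CAGATG, beginning 168 bases before it. Twist2 held no match to any of the 5 motifs. Over 32851 windows of the same length in the table, 22.8% held TATAA, 66.2% CANNTG, 9.59% GGCGCC, 4.84% TAATTA and 16.3% GGTGTG. G and C made up 62.4% of the Twist1 window, 54% of the Tbx18 window and 68.8% of the Twist2 window, against a median of 52.4% over all windows. These matches describe letters in a window and do not locate a bound factor.

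Both odd-skipped genes fell. Osr2, which acts in palate and joint formation, had signals of 91.9, 91.8 and 131 on the BMP4 arrays, against 328, 358 and 295 on the control arrays. The highest BMP4 array, at 131, was below the lowest control array, at 295. This gave 105 ± 22.7 with BMP4 and 327 ± 31.6 without it (SD, n = 3 each), a log2 change of -1.52 ± 0.13 (SE; adjusted p by limma 3.91e-05). Of the whole array, 0.218% of all tested probe sets had a more negative change. A second Osr2 probe set, 1430950_at, had 2.7, 3 and 2.2 with BMP4 and 6.5, 3.8 and 4 without it, all under background, and says nothing of a change.

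Osr1, which marks early kidney and limb mesenchyme, had signals of 1238, 1316 and 1229 with BMP4 and 1714, 1928 and 1772 in control cells. Every BMP4 array was lower than every control array, and the arrays within a group lay close together. The means were 1261 ± 48.1 with BMP4 and 1805 ± 111 without it (SD, n = 3 each), a log2 change of -0.51 ± 0.07 (SE; adjusted p by limma 0.000939). Both calls held in all 17 alternative analyses, with changes between -1.66 and -1.22 for Osr2 and between -0.61 and -0.46 for Osr1.

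The log2 ratio of Osr1 to Osr2 within an array was 3.54, 3.63 and 3.08 with BMP4, against 2.33, 2.38 and 2.52 in controls. It was thus higher on each BMP4 array than on any control array, by 1.0 on average. The exact two-sided permutation test gave p = 0.1, the smallest that 3 arrays against 3 allow (0.2 after adjustment over the 4 gene pairs compared), so this test could not pass the threshold whatever the values.

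Twist1 fell on its single probe set and Twist2 did not pass the test. Twist1, which is needed for head mesenchyme and skull sutures, had signals of 189, 284 and 260 with BMP4, against 371, 349 and 312 without it. BMP4 replicate 1 was the lowest array, and the groups did not overlap. Means were 244 ± 49.4 with BMP4 and 344 ± 30.1 in controls (SD, n = 3 each), a log2 change of -0.48 ± 0.13 (SE; adjusted p by limma 0.044). The Twist1 call was lost without BMP4 replicate 1 (adjusted p = 0.0752), BMP4 replicate 3 (0.0593), control replicate 1 (0.155), control replicate 2 (0.122) or control replicate 3 (0.0569), and in 10 of 17 alternatives in all, with a negative change in each.

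Twist2, also named Dermo1 for its place in the dermis, had 295, 360 and 268 with BMP4, against 352, 386 and 397 without it. Here BMP4 replicate 2 lay above control replicate 1, so the groups overlapped. Its log2 change was -0.29, with a 95% interval of -0.52 to -0.06 (limma adjusted p = 0.117). Without BMP4 replicate 2 it was -0.41 and passed (adjusted p = 0.0274). The log2 ratio of Twist1 to Twist2 differed between BMP4 and control arrays by -0.19 (exact permutation p = 0.5), with overlapping groups, so a different response of the 2 genes was not shown.

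Prrx1 was read by 5 tested probe sets, which did not give the same size of change. Probe set 1439774_at had 1089, 1160 and 1143 with BMP4 and 1542, 1723 and 1516 in controls, with no overlap. Its log2 change was -0.49 ± 0.07 (SE; adjusted p by limma 0.0014), and it passed in all 17 alternatives. The brightest probe set, 1425528_at, had 3138, 3331 and 3007 with BMP4 and 3332, 3699 and 3719 in controls. BMP4 replicate 2 and control replicate 1 were nearly equal there, and the change of -0.18 did not pass (limma adjusted p = 0.209), though it did after quantile normalization (0.00546) and cyclic loess (0.00753).

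The other Prrx1 probe sets did not pass either. Their log2 changes were -0.16 (95% interval -0.33 to 0.01) on 1425527_at, -0.19 (-0.38 to -0.01) on 1425526_a_at and -0.04 (-0.21 to 0.13) on 1432129_a_at. All 5 probe sets thus had negative values, from -0.49 to -0.04. A comparison chosen after these values were seen set 1439774_at against the mean of the other 4 within each array. That log2 ratio was -0.55, -0.45 and -0.38 with BMP4, against -0.04, -0.08 and -0.21 in controls, and the groups did not overlap. The difference was -0.34 (exact two-sided permutation p = 0.1, the smallest possible), and it lay between -0.39 and -0.30 when any 1 array was left out. Which Prrx1 transcripts each probe set reads was not tested. A further Prrx1 probe set, 1458004_at, was at or under 22 on every array.

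**Figure D3:**
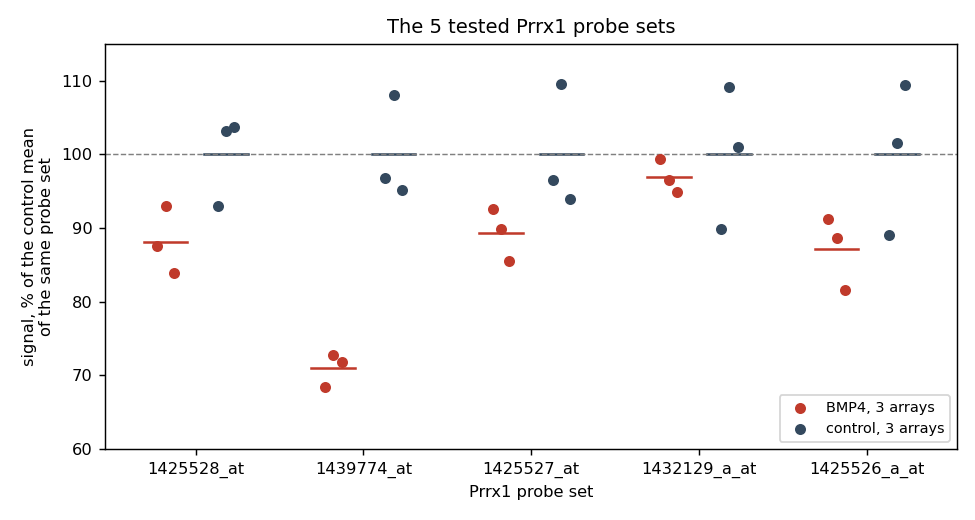
Signal of each tested Prrx1 probe set as a percentage of its own control mean (points: arrays; short lines: group means). The vertical axis starts at 60%. On 1439774_at the BMP4 mean was 29% below the control mean with no overlap, while on 1432129_a_at it was 3.08% below with overlapping arrays.

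Prrx2, the close relative of Prrx1, had 1381, 1523 and 1478 with BMP4, against 1440, 1486 and 1522 without it. The groups overlapped fully, and the log2 change was -0.02, with a 95% interval of -0.17 to 0.13 (limma adjusted p = 0.887). With the brightest Prrx1 probe set, the log2 ratio of Prrx1 to Prrx2 was 1.17, 1.12 and 1.02 on BMP4 arrays and 1.20, 1.31 and 1.28 on control arrays. The groups did not overlap, and the difference of -0.16 had an exact permutation p of 0.1, the smallest possible (0.2 after adjustment over the 4 gene pairs). This difference rests on 1 Prrx1 probe set, while the log2 changes of the other tested Prrx1 probe sets ran from -0.49 to -0.04.

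Among the T-box genes, Tbx18 had negative changes on both of its probe sets, 1 of which passed. Probe set 1429974_at had 194, 177 and 210 with BMP4 and 284, 276 and 225 in controls, without overlap. Its means were 194 ± 16.6 with BMP4 and 261 ± 32.2 in controls (SD, n = 3 each), a log2 change of -0.40 ± 0.11 (SE; adjusted p by limma 0.04). The dimmer 1449871_at had 80.3, 78.5 and 65.5 with BMP4 and 128, 114 and 95.7 in controls, again without overlap, and its change of -0.50 ± 0.14 just missed the threshold (adjusted p = 0.0511).

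The Tbx18 call on 1429974_at was lost without BMP4 replicate 1 (adjusted p = 0.0762), BMP4 replicate 2 (0.125), control replicate 1 (0.151) or control replicate 2 (0.144). It passed in 9 of 17 alternatives, and 1449871_at passed in 7 of 17, among them the analysis without control replicate 3 (0.0452). Both probe sets had a negative change in every alternative. When all tested probe sets of a gene were averaged before the fit, Tbx18 had a change of -0.45 (limma adjusted p = 0.0163) and Prrx1 a change of -0.21 (0.0695).

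Tbx15, a factor known from subcutaneous fat and the shoulder girdle, had 83.8, 103 and 63.7 with BMP4, against 104, 75.4 and 89.4 in controls on 1418755_at. The arrays overlapped, and the log2 change of -0.10 had a wide interval of -0.48 to 0.28 (limma adjusted p = 0.789). On 1422195_s_at it was -0.20 (interval -0.63 to 0.23), and an s_at probe set may also bind related transcripts. The log2 ratio of Tbx15 to Tbx18 differed by 0.30 between BMP4 and control arrays (exact permutation p = 0.4), with overlap.

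Tbx3, a repressor needed for limb and mammary gland development, was read by 3 tested probe sets, none of which passed. On the brightest, 1448029_at, signals were 83, 84.9 and 94 with BMP4, against 90.1, 67.9 and 74.4 in controls. The log2 change was 0.15 with an interval of -0.16 to 0.46 (limma adjusted p = 0.575), and this was the 1 positive value among the 17. The others gave -0.06 (-0.35 to 0.23) and -0.03 (-0.50 to 0.45), and groups overlapped on all 3. Its probe sets 1445757_at and 1444594_at were at or under 20.9 on every array. Tbx2 had 3.9, 1.4 and 10.7 with BMP4 and 10, 9.3 and 5.5 in controls, all under the 29.1 of the bacterial controls, so no change can be read for it.

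**Figure D4:**
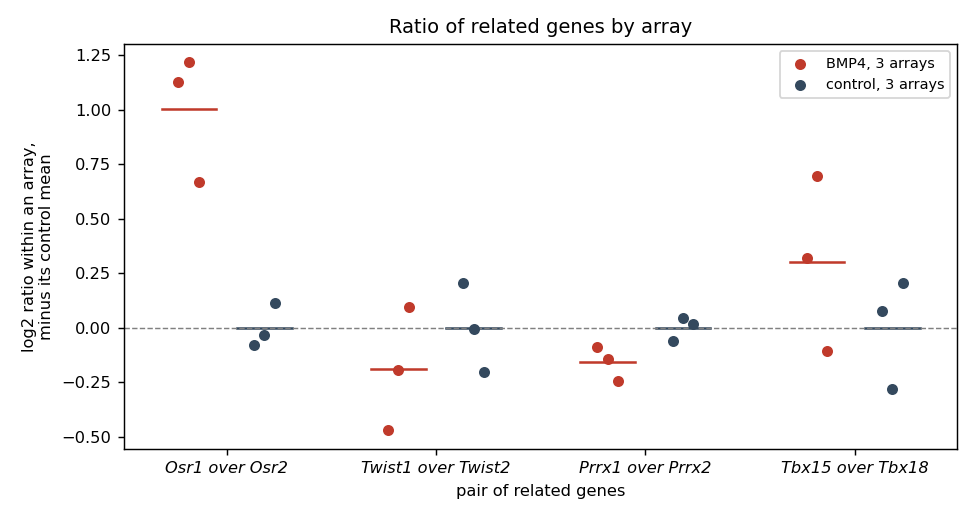
Log2 ratio of related genes within each array, with the brightest tested probe set per gene. Values are shown relative to the control mean of that ratio (points are arrays, short lines are group means). Osr1 over Osr2 was higher with BMP4 by 1.0 on average without overlap and Prrx1 over Prrx2 differed by -0.16 without overlap, while the arrays of both groups mix for Twist1 over Twist2 and for Tbx15 over Tbx18; every p was at or above 0.1.

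Genes that work with these factors were taken from lists of general knowledge, chosen with earlier results of these data known. Over all genes tested, 10.7% were called in either direction. Of 5 tested T-box genes other than the members 0 were higher and 0 were lower (limma; also 0 at an unadjusted p under 0.05), with a median log2 change of -0.06. The gene with the smallest p was Tbx19, a factor of pituitary cells, whose log2 change was 0.31 (adjusted p = 0.315). Its mean signals were also low, at 50.4 with BMP4 and 37.4 in controls. Of 11 helix-loop-helix partners and relatives of Twist, 0 were higher and 1 was lower, with a median of -0.05. That was Id2, an inhibitor that binds E proteins and keeps them from DNA, which had 538, 612 and 617 with BMP4 and 895, 762 and 699 in controls (log2 change -0.40, limma adjusted p = 0.0225). Id2 lost its call when BMP4 replicate 1 (adjusted p = 0.0718) or either of control replicates 1 (0.074) and 2 (0.0589) was left out. At an unadjusted p under 0.05 there was 1 higher gene, Id4, another inhibitor of this family (log2 change 0.60, adjusted p = 0.0515), which passed without BMP4 replicate 1 (0.0314) or control replicate 3 (0.0281). Id4 was singled out from its value. The E proteins, named for their role beside Twist and outside the rule for names, gave log2 changes of 0.14 for Tcf3 (adjusted p = 0.388), -0.16 for Tcf12 (0.218) and -0.21 for Tcf4 (0.0719).

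Of 7 tested homeobox genes of mesenchyme, 1 was lower and 0 were higher, with a median of -0.11. Meis2, a cofactor of Hox proteins, had 896, 891 and 898 with BMP4, against 1163, 1146 and 1116 in controls. The arrays within each group were nearly equal, and the log2 change was -0.35 ± 0.06 (SE; adjusted p by limma 0.00424). Other Meis2 probe sets gave -0.26 on 1417129_a_at (limma adjusted p = 0.0468), -0.38 on 1447861_x_at (0.153) and 0.15 on the dim 1440091_at (0.75). At an unadjusted p under 0.05 there were also 0 higher genes (limma). Without BMP4 replicate 3 a second gene was called lower, Meis1, of the same family, which is named here after its value was seen. With all arrays Meis1 had a log2 change of -0.32 and did not pass (limma adjusted p = 0.144). Its dimmer probe sets gave 0.10 on 1443260_at (adjusted p = 0.776) and 0.05 on 1459423_at (0.889).

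Regulators and readouts of the epithelial-mesenchymal transition moved both ways, with 2 higher and 1 lower among 12 tested and a median of 0.13. Snai2, a repressor of the Snail family, had 5815, 5736 and 4726 with BMP4 and 3330, 3881 and 4267 in controls, a log2 change of 0.50 (limma adjusted p = 0.0179). Zeb2, another repressor of the same programme, had 224, 228 and 217 with BMP4 and 343, 327 and 300 in controls, a log2 change of -0.50 (adjusted p = 0.0025). The matrix protein Postn rose by 0.29 (adjusted p = 0.0463). Postn was not called without any 1 of the 6 arrays (adjusted p = 0.0552 to 0.17). Leaving out BMP4 replicate 1 or 2, or control replicate 2, left 0 higher genes, since Snai2 also lost its call (0.0705, 0.0742 and 0.0577). Leaving out any other array left 1. With each array centred on its median it was 0, Snai2 then having an adjusted p of 0.0585.

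Genes linked in other settings to the members as targets or effectors also moved both ways, 3 higher and 3 lower among 14 tested, with a median of -0.10. Il6, an inflammatory cytokine held down by Twist proteins in other cells, had 23, 25.6 and 9.1 with BMP4 and 162, 130 and 85.6 in controls. All BMP4 arrays were under the bacterial control signal, so only a bound can be given: Il6 was at least 4.19-fold lower with BMP4, with the BMP4 arrays set to 29.1 (limma adjusted p = 0.00045). It was not tested with the filter at the 60th percentile. The gap junction gene Gja1, a target of repression by Tbx2 and Tbx3 in the heart, had 483, 402 and 491 with BMP4 and 863, 975 and 791 in controls (log2 change -0.91). Of 5 further Gja1 probe sets 4 also fell, between -1.07 and -0.70, and 1 gave -0.05 (adjusted p = 0.848).

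Fgfr2, a growth factor receptor linked to Twist1 in the skull, had 1057, 1038 and 1080 with BMP4 and 379, 392 and 479 in controls, a log2 change of 1.32 ± 0.09 (SE; adjusted p by limma 5.96e-06). It also rose by 1.15 on 1420847_a_at (limma adjusted p = 6.81e-06), while the dim 1443211_at gave 0.34 and did not pass (0.501). Tgfb2, a ligand linked to Prrx1, rose by 0.93. Named to complete the counts after their values were seen, Cdkn1a, a cell cycle inhibitor repressed by Tbx2 and Tbx3, rose by 0.66, and Bmp4 fell by 0.87. A second, dimmer Cdkn1a probe set, 1421679_a_at, gave 0.34 and did not pass (limma adjusted p = 0.11). Cdkn2a, known as a target of the same T-box repressors and likewise named outside the rule, gave -0.14 (adjusted p = 0.704).

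**Figure D5:**
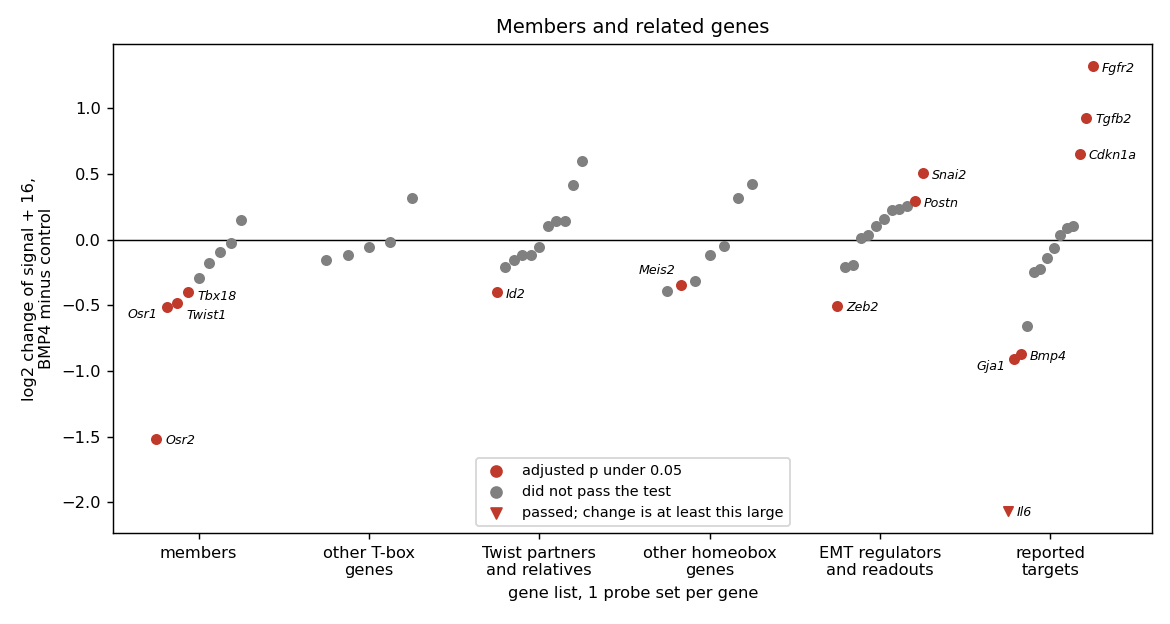
Log2 change of signal + 16, BMP4 minus control, for the 9 tested members and 5 lists of related genes, 1 probe set per gene; named red points passed the test. Members lie between -1.52 and 0.15 with 4 in red, all lower, while red points of the related lists lie on both sides of 0, up to Fgfr2 at 1.32; the triangle for Il6 marks a bound on log2 signal, not a measured change.

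The genes most like each fallen member across the 6 arrays were picked by Pearson correlation of log2 values among 12966 genes. For Osr2 they were Man1a, a mannosidase of the Golgi (r = 0.998), and Dapk1, a death-associated kinase (r = 0.998), which had log2 changes of -0.63 and -0.53. For Osr1 they were Nicn1 (r = 0.997) and Nr4a1, an immediate early nuclear receptor (r = 0.997), at -0.26 and -0.83. For Twist1 they were Dnmbp (r = 0.994) and Chaserr (r = 0.991), and for Tbx18 Ints10 (r = 0.993) and Clec16a (r = 0.993). The arrays form 2 groups, so these values include the difference between the groups and describe 6 arrays only.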

How the data were processed

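Total RNA of 6 C3H10T1/2 samples, 3 with BMP4 and 3 without, was labelled with biotin and measured on single-colour arrays, 1 per sample. The authors deposited linear signal intensities, and the submitters' processing notes name GCOS 1.3. Its scaling and background settings are not given in the sources read, and the equal 2% trimmed mean of 150 on each array is what scaling to a common target gives. Such scaling would hide a shift shared by most transcripts. Groups and replicate numbers came from the titles.

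Probe sets were named from the platform annotation when it gave 1 symbol (34958 of 45101; 932 had several and 9211 none). The 64 control probe sets did not enter, and values were log2(signal + 16). Probe sets with a mean log2 value above the 40th percentile (a signal of 23.5) entered a two-sided limma 3.58.1 fit (R 4.3.3, eBayes with intensity trend) of BMP4 minus control. A gene was represented by its tested probe set with the highest mean. For the called genes Fgfr2, Gja1, Meis2 and Snai2 this was an s_at or x_at probe set, which may also bind related transcripts. Fold changes on the log2(signal + 16) scale understate changes of dim genes. The fit was tested on simulated data first. Of 50 probe sets changed 1.5-fold it recovered 66%, and of 50 changed 2-fold it recovered 96%, with 9 false calls among the unchanged probe sets. The simulated scatter was set by mean signal alone, without spread between probe sets, so recovery on the real arrays may be lower. A change of 1.5-fold or less can thus be missed. Precision is limited by having 3 arrays a group.

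The members and the lists were chosen with earlier results of these data known. Named are all members, up to 4 called genes per list by size of change or otherwise the gene with the smallest p, and the 2 genes most correlated with each called member; other names are marked in the text. Alternatives were other pseudocounts, filters, normalizations, variance models, array weights, a replicate block, averaged probe sets and leaving out each array.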

Additional observations from a re-analysis of the deposited data

How the results depend on the processing

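The 5 called member probe sets had a negative change in all alternatives tried, while 5 uncalled ones changed sign in at least 1. Of the calls, Osr1, Osr2 and Prrx1 1439774_at held in 17 of 17 alternatives, Tbx18 1429974_at in 9 and Twist1 in 7. The number of lower member probe sets was 3 (5 in the chosen setting) without the filter, without the intensity trend and with the replicate block, and the number of lower member genes was 2 in each of these. Leaving out 1 array gave 3 to 5 lower probe sets and 2 to 4 lower genes. No setting called a member higher (0 throughout, limma).

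For Twist partners and relatives, higher genes numbered 1 with a pseudocount of 64, the filter at the 60th percentile, robust eBayes, array weights or the replicate block. Lower ones numbered 0 without the filter or the trend and 2 with the 60th percentile filter or median centring, and leave-one-out gave 0 to 1 in both directions. For the transition list, higher genes numbered 3 with the filter at the 60th percentile, quantile normalization or cyclic loess. This list had 1 higher gene with a pseudocount of 64 or the replicate block. It had 0 without the filter, with median centring or without the trend, and 0 to 1 with 1 array left out. Its lower genes numbered 2 with quantile normalization or cyclic loess. Lower homeobox genes numbered 2 with median centring or the replicate block, 0 without the trend, and 1 to 2 with 1 array left out.

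Over all probe sets, median centring gave 632 higher calls, so that 25.1% of calls were higher, against 46.1% as deposited. Without the trend 659 were higher and 763 lower. With 1 array left out, 768 to 945 were higher and 845 to 1063 lower. Where a setting changed a call, the cause was not tested.

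Deviations of same-numbered samples from their group means had correlations of 0.02, 0 and -0.065. No pairing by replicate number was thus seen in the values, which cannot show whether the samples were handled in pairs. Of the member calls, the replicate block lost Twist1 (limma adjusted p = 0.0574) and Tbx18 (0.0709). The 4 gene pair ratio differences kept their sign in the 11 alternatives computed for them. Tbx2 and 4 further member probe sets were under background, which limits what can be said of them.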

Other observations

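Probe sets of some related genes gave unlike values, which are listed here because they fall outside the choice of 1 probe set per gene. Cdh11, a cadherin of mesenchymal cells, had a log2 change of -0.21 (limma adjusted p = 0.21) on its brightest probe set, with mean signals of 4399 with BMP4 and 5087 without it. Its second probe set, 1435120_at, had means of 612 and 1228 and a log2 change of -0.99 (adjusted p = 5.49e-06). Id4, an inhibitor of helix-loop-helix factors, did not pass on its brightest probe set but rose on the others, by 1.0 (adjusted p = 0.01) and 0.77 (adjusted p = 0.024). The E protein gene Tcf4, a partner of Twist proteins, fell on 1 of its 6 tested probe sets, by 0.31 on the log2 scale (adjusted p = 0.0327), while its dimmest gave 0.30 (0.418). Snai2 rose on a second probe set as well, by 0.37 (adjusted p = 0.0298). Zeb2 fell on 2 further probe sets, by 0.41 and 0.62, and had 0.30 (adjusted p = 0.295) on a dimmer one. These probe sets were picked after their values were seen, and which transcripts they read was not tested.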
